A study of Mus musculus with 18 samples.

Results

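The basement membrane collagen genes Col4a1, Col4a2, Col4a3, Col4a4, Col4a5, Col4a6, Col15a1 and Col18a1 were followed in GFP+ Tcf21-lineage cardiac fibroblasts of neonatal mice. They are the type IV, XV and XVIII collagen genes, taken by family and not by their values, and make up 8 of the 55453 gene symbols in the deposited count table. All 8 had counts and all 8 passed the filter on low counts, which left 16170 genes. Col4a3 passed with 15 and Col4a6 with 13 of the 18 libraries at or above the filter's level of 0.512 CPM (counts scaled to a library of 1000000), and the libraries under that level were mostly from P2 pups, whereas the other 6 members were above it in all 18.

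Basement membranes are thin sheets of matrix under epithelia and endothelia and around muscle, fat and nerve cells, and type IV collagen is their network-forming component. Its chains fold 3 at a time into a helix inside the cell: the products of Col4a1 and Col4a2 form the trimer found in nearly all basement membranes, while those of Col4a3, Col4a4 and Col4a5, or of Col4a5 and Col4a6, form trimers of specialised ones such as that of the kidney glomerulus. Col15a1 and Col18a1 encode collagens that carry sugar chains and sit where basement membranes meet the interstitial matrix. Their C-terminal ends can be released as the fragments restin and endostatin. Around each cardiomyocyte and capillary of the heart lies a basement membrane, and fibroblasts are among the cells that make its collagens.

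The 18 libraries formed 6 groups of 3, all from Tcf21-MerCreMer/+; Rosa-mTmG/+ pups, labelled as strain C57BL/6J, given tamoxifen at P1, and the cells sorted for GFP came from the apical ventricles, taken without atria and valves. P2 baseline and P10 baseline pups had no surgery. In the 4 other groups pups had sham surgery or apical resection (removal of the tip of the ventricles) at P2 or at P10 and were collected 3 days later, and these groups are called P2 sham, P2 resected, P10 sham and P10 resected. The design set these surgeries on either side of the loss of cardiac regeneration, so age was compared within each treatment and over the P2 and P10 windows (9 libraries each), and resection was compared with sham surgery at each age. Cre was driven from the Tcf21 locus and labelled cells that expressed it around P1, so fibroblasts outside that lineage were not sampled. Neither the pups per library nor their sex were given, so p-values measure the spread between these libraries, which may be technical in part. Older hearts were shaken in enzyme for longer, which cannot be told apart from age.

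Library totals on genes ran from 10462737 to 22980554 counts. The summed level of 10 fibroblast markers was 58681 to 111286 CPM in the P2 window and 82987 to 122889 CPM in the P10 window, and none was at 0 in any group. Markers of other cells were lower, with ranges of 185 to 540 CPM for 10 endothelial, 421 to 1602 CPM for 9 mural, 890 to 2142 CPM for 8 epicardial, 5.29 to 1081 CPM for 12 macrophage, 118 to 1071 CPM for 10 cardiomyocyte and 3.06 to 60.3 CPM for 5 glial genes. The defining glial marker Sox10 was at 0 in 5 of the 6 groups. In bulk libraries fewer cells of a type and less RNA per cell cannot be told apart.

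The 6 type IV collagen genes lie as 3 head-to-head pairs, each pair read outward from a shared start region. In GRCm38, Col4a1 (ENSMUSG00000031502.11) occupied chr8:11198423-11312826 on the minus strand and Col4a2 (ENSMUSG00000031503.13) chr8:11312805-11449287 on the plus strand, so that their annotated starts lay 21 bases apart and their first exons overlapped. Col4a3 (ENSMUSG00000079465.8) occupied chr1:82586921-82722059 on the plus strand and Col4a4 (ENSMUSG00000067158.9) chr1:82448423-82586849 on the minus strand, with starts 72 bases apart. Col4a5 (ENSMUSG00000031274.16) occupied chrX:141475385-141689234 on the plus strand and Col4a6 (ENSMUSG00000031273.16) chrX:141165403-141474076 on the minus strand, with starts 1309 bases apart. Col15a1 (ENSMUSG00000028339.17) at chr4:47208161-47313167 on the plus strand and Col18a1 (ENSMUSG00000001435.15) at chr10:77052178-77166548 on the minus strand have no such partner, and Col18a1 has 2 start sites in RefSeq, at 77166530 and 77113705. Counting ignored strand, and 5.65% of Col4a3's exon bases overlapped the antisense gene C430014B12Rik, so reads there could come from either. The 22 bases shared by Col4a1 and Col4a2 were 0.295% of Col4a1's exon bases.

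The start regions of the 3 pairs are printed because the members of a pair are compared below. All are from GRCm38.p6, 5′ to 3′, with capitals marking GGGCGG, the core of the GC box bound by Sp1-type factors, or its reverse complement CCGCCC. The sequences are the bases shared by the first exons of Col4a1 and Col4a2 (chr8:11312805-11312826, plus strand), the bases between the starts of Col4a4 and Col4a3 (chr1:82586850-82586920, plus strand), and the 100 bases before the annotated starts of Col4a5 (chrX:141475285-141475384, plus strand) and Col4a6 (chrX:141474077-141474176, minus strand).
Col4a1 and Col4a2: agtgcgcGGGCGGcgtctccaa
Col4a4 to Col4a3: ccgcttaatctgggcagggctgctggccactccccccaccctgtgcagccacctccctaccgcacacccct
Col4a5: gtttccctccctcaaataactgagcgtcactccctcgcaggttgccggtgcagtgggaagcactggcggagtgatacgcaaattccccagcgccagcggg
Col4a6: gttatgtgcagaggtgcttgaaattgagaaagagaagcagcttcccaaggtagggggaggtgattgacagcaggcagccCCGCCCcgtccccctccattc

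The GC box letters lay in the bases shared by Col4a1 and Col4a2 and in those before Col4a6, and not in the other stretches printed. The 250 bases before the RefSeq starts of the other 7 members were searched on both strands for the GC box, for the letters CCAAT and for the letters TATAAA. Col4a2 held 2 GC boxes and 1 CCAAT, Col4a1 held 1 CCAAT, Col4a5 held 1 GC box and 1 CCAAT, Col4a6 held 1 GC box, and Col4a4 and Col15a1 held no match. Col4a3 was not searched. The upstream start of Col18a1 had 3 GC boxes and 1 CCAAT, and its downstream start had no match. No window of a member held TATAAA. Of 32851 such windows before mouse start sites, 32.7% held a GC box, 33.8% a CCAAT and 12.4% a TATAAA, so these short matches are common and are given as descriptions only.

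Per kilobase of exon, the scale on which genes can be set side by side, the common type IV chains stood far above the rest. Averaged over the 18 libraries, Col4a1 stood at 486 ± 159 CPM per kb and Col4a2 at 289 ± 94.3 CPM per kb (SD, n = 18). Col15a1 followed at 64.8 ± 26.9 CPM per kb and Col18a1 at 11.5 ± 4.84 CPM per kb. The specialised chains were lowest, at 5.14 ± 2.97 CPM per kb for Col4a5, 1.44 ± 1.27 for Col4a4, 0.895 ± 1.01 for Col4a3 and 0.515 ± 0.503 for Col4a6. The last 3 overlapped in their spread, and in the P10 sham group Col4a5 (7.90 CPM per kb) was level with Col18a1 (7.84 CPM per kb). In each library the Col4a1 level was 1.50 to 1.95 times the Col4a2 level per kb, with a median of 1.65.

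**Figure D1:**
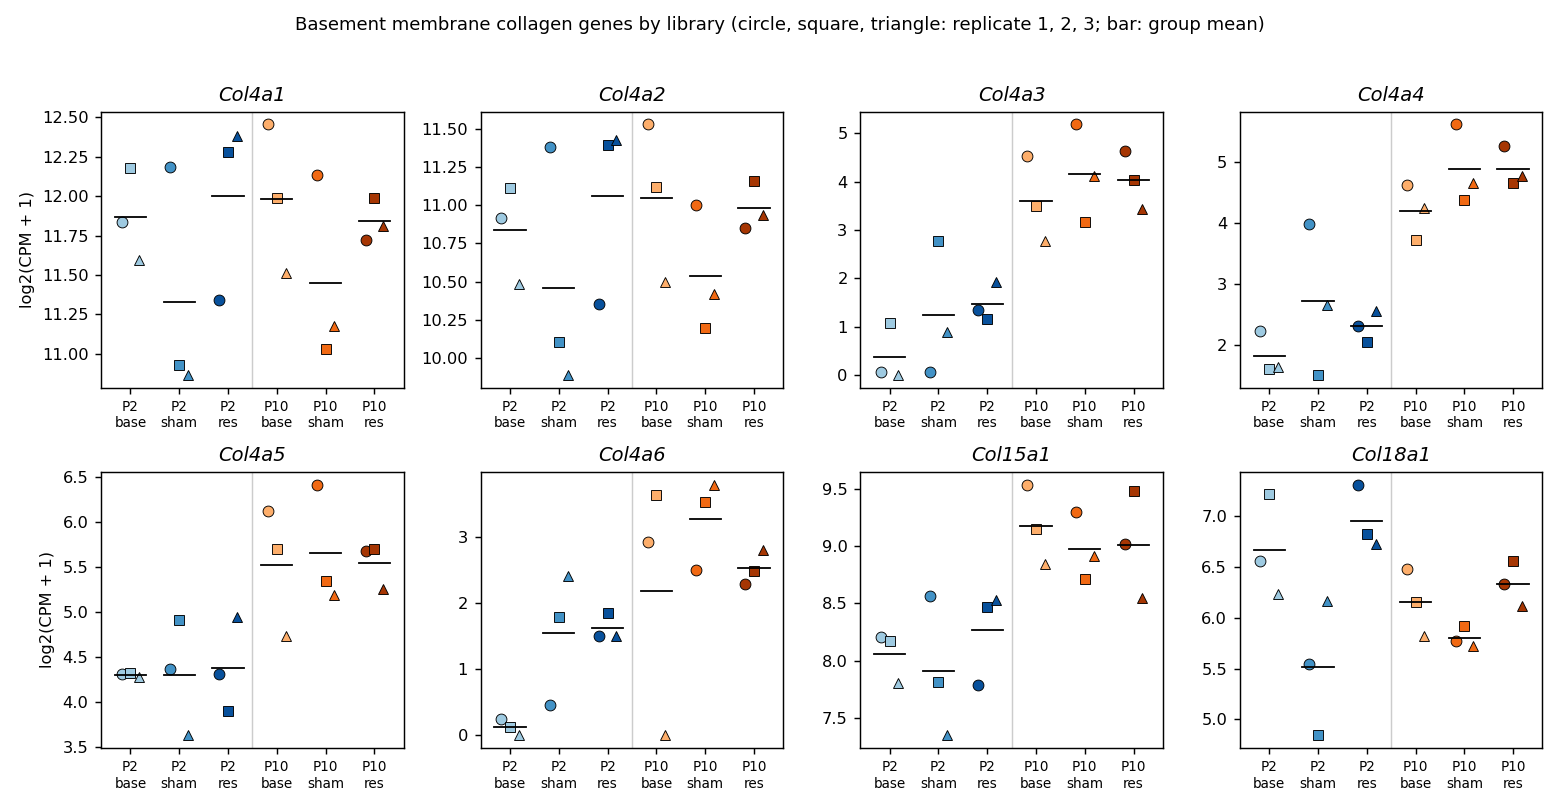
Level of each member in each library, as log2(CPM + 1) on the vertical axis of its own panel, by group on the horizontal axis (base, baseline; res, resected +3 days); symbols mark replicates 1 to 3 and bars the mean of the plotted values. Col4a1 and Col4a2 covered the same range in both windows, while the P10 libraries of Col4a3, Col4a4, Col4a5 and Col15a1 sat above most P2 libraries and Col18a1 was lowest in the P2 sham group.

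Col4a1 and Col4a2, the chains of the common trimer, did not separate by age. Col4a1 was 3650, 4630 and 3099 CPM in the P2 baseline libraries (replicates 1, 2 and 3) and 5612, 4062 and 2921 CPM at P10 baseline. After sham surgery it was 4648, 1953 and 1866 CPM at P2 and 4501, 2088 and 2313 CPM at P10. After resection it was 2595, 4974 and 5345 CPM at P2 and 3382, 4062 and 3589 CPM at P10. Every pair of neighbouring groups in the order of means overlapped in range, and P10 resected was the narrowest group. Over the windows the log2 fold change of P10 over P2 was -0.00 for Col4a1 (SE 0.22, 95% interval -0.43 to 0.42, edgeR adjusted p = 1) and 0.02 for Col4a2 (SE 0.22, 95% interval -0.41 to 0.45, adjusted p = 0.990). Col4a2 ranged from 945 to 2759 CPM in the P2 window and from 1170 to 2959 CPM in the P10 window.

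The 5 members that rose from the P2 to the P10 window were Col4a3, Col4a4, Col4a5, Col4a6 and Col15a1. A gene was called when its Benjamini-Hochberg adjusted p, from quasi-likelihood fits in edgeR, was under 0.05. By this rule 13.5% of all genes tested were called in this comparison and 7.11% were called higher at P10. The median log2 fold change was 1.14 over the 8 members and -0.06 over all genes. No member's 9 P10 values all lay outside the range of its 9 P2 values, against 2.51% of all genes.

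Col4a3 and Col4a4, neighbours that encode chains of the glomerular trimer, had the largest rises together with Col4a6. Col4a4 was 3.68, 2.05 and 2.13 CPM at P2 baseline, 14.8, 1.84 and 5.29 CPM at P2 sham, and 3.99, 3.12 and 4.90 CPM at P2 resected. In the P10 window it was 23.8, 12.1 and 18.0 CPM at baseline, 48.2, 19.9 and 24.3 CPM after sham surgery, and 37.4, 24.2 and 26.3 CPM after resection. Only the P2 sham library of replicate 1 reached into the P10 range. The log2 fold change over the windows was 2.57 (SE 0.34, adjusted p = 5.54e-05), a 5.94-fold rise.

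Col4a3 had few reads in the P2 window: 1, 24 and 0 counts at baseline (0.046, 1.12 and 0 CPM), then 0.0464, 5.86 and 0.848 CPM at P2 sham and 1.52, 1.24 and 2.81 CPM at P2 resected. It was 22, 10.2 and 5.82 CPM at P10 baseline, 35.4, 7.95 and 16.3 CPM at P10 sham and 24.0, 15.5 and 9.87 CPM at P10 resected. The P2 sham library of replicate 2 lay just above the lowest P10 library, and all other P2 libraries lay under the P10 range. Its log2 fold change over the windows was 3.75 (SE 0.71, adjusted p = 0.00163), and 3.51 to 4.96 when 1 library was left out, the highest without P2 baseline replicate 2.

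Of the X-linked pair, Col4a5 was the more abundant. Its P2 window values ran from 11.4 to 29.8 CPM with a median of 18.8 CPM, and its P10 window values from 25.6 to 84.1 CPM with a median of 50.3 CPM. The 3 P2 baseline libraries lay close together at 18.8, 19 and 18.5 CPM, whereas P10 baseline spread over 68.7, 51.0 and 25.6 CPM. The log2 fold change was 1.30 (SE 0.25, adjusted p = 0.0015), a 2.47-fold rise.

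Col4a6 stood at the edge of detection in the youngest cells. P2 baseline held 4, 2 and 0 counts, P2 sham 0.372, 2.44 and 4.31 CPM, and P2 resected 1.82, 2.61 and 1.82 CPM. At P10 baseline it was 6.55, 11.4 and 0 CPM, and the library at 0 was the shallowest of the 18. A count of 0 allows up to 3 counts, against 108 and 213 counts in the other P10 baseline libraries. The P10 sham libraries held 4.64, 10.5 and 12.8 CPM and the P10 resected libraries 3.88, 4.58 and 5.98 CPM. Its log2 fold change over the windows was 3.01 (SE 0.70, adjusted p = 0.00737). Both genes are X-linked and the libraries differed in Xist, which ranged from 0 to 274 CPM in the P2 window and from 0 to 153 CPM in the P10 window. It was at 0 in all 3 P10 resected libraries and in no other whole group. The part of pup sex in these values was not tested.

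Col15a1, the type XV collagen, rose in the P10 window. It was 295, 286 and 223 CPM at P2 baseline, 378, 224 and 162 CPM at P2 sham and 220, 354 and 369 CPM at P2 resected. At P10 it was 742, 568 and 459 CPM at baseline, 629, 418 and 481 CPM after sham surgery and 517, 713 and 372 CPM after resection. The lowest P10 library lay just under the highest P2 library. The log2 fold change was 0.97 (SE 0.18, adjusted p = 0.00159), a 1.96-fold rise.

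Col18a1 did not pass the test over the windows and had a negative estimate, with a log2 fold change of -0.33 (SE 0.18, 95% interval -0.70 to 0.03, adjusted p = 0.256). Its P2 window values were the more spread, at 27.7 to 158 CPM with a median of 93.3 CPM, against 51.8 to 93.4 CPM with a median of 68.3 CPM in the P10 window.

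**Figure D2:**
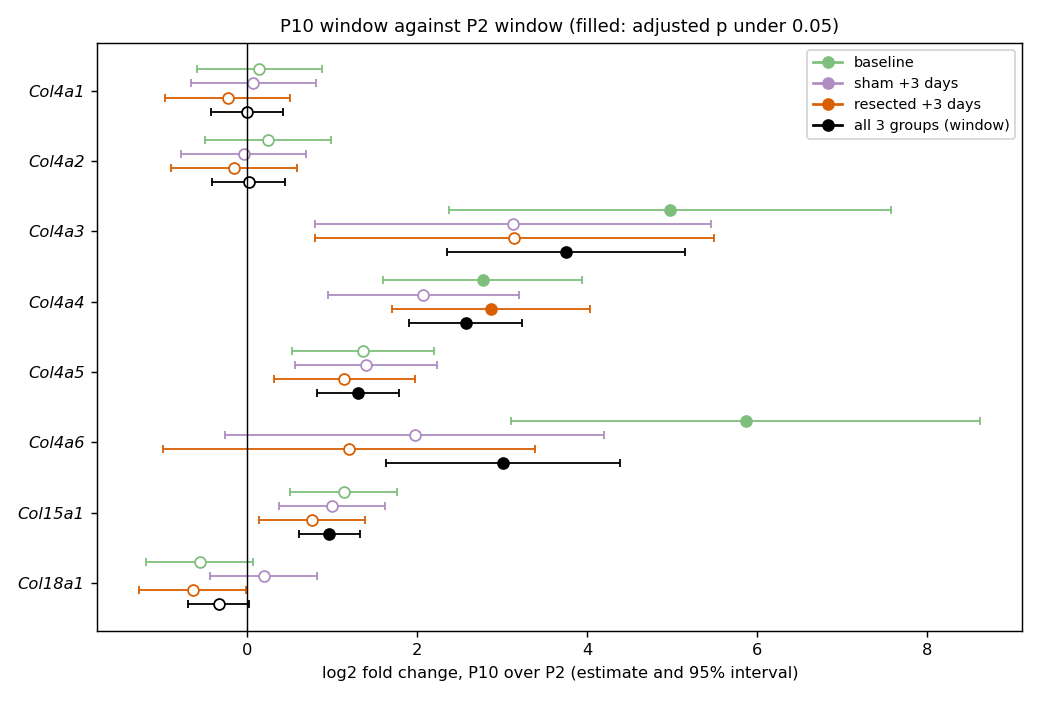
Log2 fold change of P10 over P2 for each member (horizontal axis, estimate with its normal 95% interval) at baseline, after sham surgery, after resection and over all 3 groups of a window. Filled points have an edgeR adjusted p under 0.05. Estimates for Col4a3, Col4a4, Col4a5, Col4a6 and Col15a1 lay above 0 in all 4 comparisons, and those of Col4a1 and Col4a2 lay near 0.

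Within a treatment, 3 libraries faced 3 and fewer members were called. At baseline 3 of 8 members were called, all higher at P10, where 4.38% of genes were called and 2.71% called higher. They were Col4a6 (log2 fold change 5.87, SE 1.41, adjusted p = 0.0238), Col4a3 (4.98, SE 1.33, adjusted p = 0.0411) and Col4a4 (2.77, SE 0.59, adjusted p = 0.0127). Col15a1 (1.14, SE 0.32, adjusted p = 0.052) and Col4a5 (1.37, SE 0.43, adjusted p = 0.0786) had values higher in all 3 P10 libraries than in any P2 library but missed the threshold. Both were called without the filter on low counts (adjusted p = 0.00214 and 0.0101), by DESeq2 (0.0123 and 0.0202) and by limma voom (0.00843 and 0.0168), and voom did not call Col4a6 (0.0749). In all, 4 of 8 members did not overlap between the 2 baseline groups, against 22.4% of genes. Each of these calls was lost in some fits without 1 library, which also leave fewer libraries in a group. The sizes moved as well. Leaving out 1 library moved the log2 fold change of Col4a3 between 4.32 and 8.60 (the latter without P2 baseline replicate 2). That of Col4a6 moved between 5.01 (without P10 baseline replicate 2) and 6.72 (without P2 baseline replicate 1). The call of Col4a4 was lost without P2 baseline replicate 2 (adjusted p = 0.0683) or 3 (0.0574), that of Col4a6 without any P2 baseline replicate (0.0744, 0.100 and 0.0864) or P10 baseline replicate 2 (0.0958), and that of Col4a3 in 5 of 6 cases, all but P2 baseline replicate 2 (0.0573 to 0.155).

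After sham surgery 0 of 8 members were called by edgeR, where 3.18% of genes were, although 5 members did not overlap between P10 and P2 (16.7% of genes did not). At an unadjusted p under 0.05 there were 4, namely Col4a3, Col4a4, Col4a5 and Col15a1, all higher, beside 2633 genes (16.3%). Col4a4 came nearest to the threshold, with a log2 fold change of 2.07 (SE 0.57, adjusted p = 0.0588), followed by Col4a5 (1.40, SE 0.43, 0.0909) and Col15a1 (1.00, SE 0.32, 0.105). DESeq2 called 2 members, Col4a4 and Col4a5, and limma voom called 2, Col4a4 and Col15a1. Without P2 sham replicate 1, the library with the high Col4a4 value, edgeR called Col4a4 (log2 fold change 3.12, adjusted p = 0.00623) and Col15a1 (0.0265). Without P2 sham replicate 2 edgeR called Col4a3 (0.0475).

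Between the resected groups 1 of 8 members was called, with 0.86% of genes called and 0.625% called higher. This was Col4a4, whose log2 fold change was 2.87 (SE 0.59, adjusted p = 0.0251). Its call was lost without any 1 of the P2 resected replicates (adjusted p = 0.101 to 0.202) or without P10 resected replicate 1 (0.0764) or 3 (0.0797). A further 5 members did not overlap between the groups, giving 6 in all against 23.3% of genes. Col4a3 (3.15, SE 1.19), Col4a5 (1.15, SE 0.42), Col4a6 (1.20, SE 1.12) and Col15a1 (0.77, SE 0.32) were higher in every P10 library, and Col18a1 (-0.64, SE 0.32) was lower, with adjusted p between 0.346 and 0.934. Col4a3 was called here without the filter on low counts (adjusted p = 0.000828), by limma voom (0.00606) and with the compared libraries alone (0.019), and Col4a5 by voom (0.019). Whether the change with age differed between treatments was tested only as the difference of the resection effects.

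The make-up of type IV collagen transcripts shifted in the P10 window, as the level of the common chains held. Per kilobase of exon, Col4a3 to Col4a6 together made up 0.399% ± 0.0683 of type IV collagen counts at P2 baseline, 0.796% ± 0.419 at P2 sham and 0.462% ± 0.194 at P2 resected (SD, n = 3 each). They made up 1.17% ± 0.161 at P10 baseline, 2.15% ± 0.112 at P10 sham and 1.48% ± 0.339 at P10 resected. Over the windows this was 0.552% ± 0.297 (range 0.262 to 1.25) against 1.6% ± 0.474 (range 0.987 to 2.27; SD, n = 9 each). Col4a1 and Col4a2 made up the remaining 99.4% and 98.4%. Most of the minor share was Col4a5 with Col4a6, at 0.467% in the P2 and 1.06% in the P10 window, and Col4a3 with Col4a4 rose from 0.0853% to 0.536%. For the latter pair the highest P2 library (0.176%) lay under the lowest P10 library (0.243%). These shares are given as descriptions, since they come from the same counts as the tests above.

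**Figure D3:**
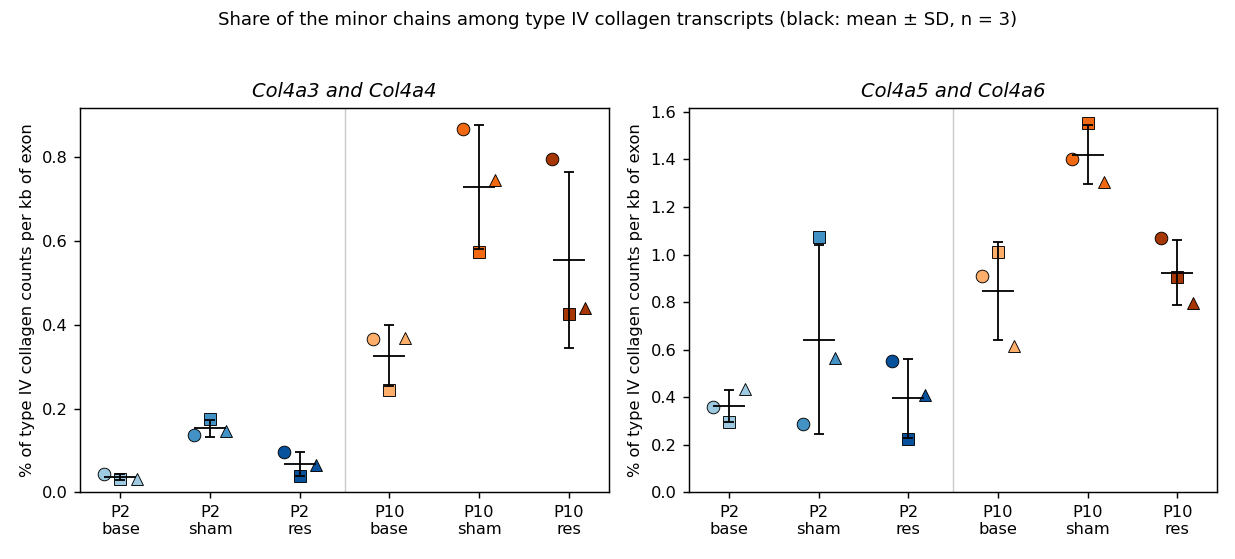
Share of the minor chains among type IV collagen counts per kilobase of exon (vertical axis, percent, from 0), by group, for Col4a3 with Col4a4 (left) and Col4a5 with Col4a6 (right); points are libraries and black marks the mean ± SD of 3. All P10 libraries on the left lie above all P2 libraries, and on the right the highest P2 library is a P2 sham one at 1.07%.

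Whether the members of a head-to-head pair went together from library to library was read pair by pair, and differences between pairs were not tested. In exact two-sided permutation tests over the 9 libraries of a window, the log2 CPM of Col4a1 and Col4a2 correlated with Pearson's r = 0.985 in the P2 window (p = 2.756e-06, the smallest these permutations can give, adjusted over 9 relations 2.48e-05) and Spearman's rho = 1.00 (adjusted p = 4.96e-05). In the P10 window r was 0.971 (exact permutation p = 3.58e-05, adjusted 0.0001075) and rho 0.95 (adjusted 0.001058). Without the 2 libraries farthest from the median, r was 0.976 and 0.924. As deviations from the 6 group means, 18 libraries gave r = 0.978 (p = 2.143e-05, again the smallest possible with exact permutation within groups, adjusted 9.65e-05).

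For Col4a3 with Col4a4 the P10 window gave r = 0.770 (exact permutation p = 0.0143, adjusted 0.0322) and rho = 0.70 (p = 0.0433, adjusted 0.0973), and r was 0.614 without the 2 farthest libraries. The P2 window, where Col4a3 had few counts, gave r = -0.33 and rho = -0.20 (adjusted p = 0.508 and 0.920 by exact permutation), and r = -0.81 without the 2 farthest libraries. Over deviations from group means r was -0.45 and rho -0.07 (adjusted p = 0.508 and 0.949 by exact permutation). Without the 2 farthest libraries r was 0.33, and -0.20 with a prior count of 0.5 in place of 2. Col4a5 with Col4a6 gave r = -0.10 in the P2 window, 0.48 in the P10 window and 0.25 over deviations, with adjusted p of 0.802, 0.404 and 0.680 by exact permutation. Without the 2 farthest libraries the P10 value turned to -0.39. Points of a window also share their group.

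**Figure D4:**
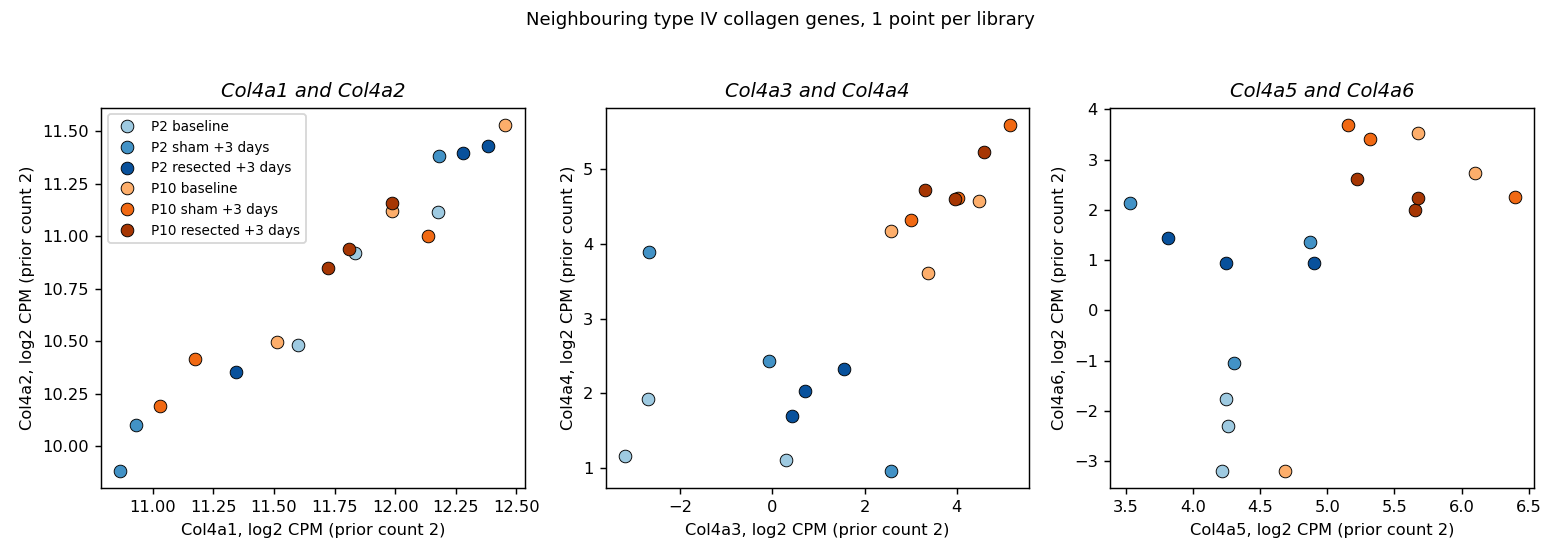
The 3 head-to-head pairs, with the log2 CPM (prior count 2) of 1 gene on each axis and 1 point per library, coloured by group. Col4a1 and Col4a2 fall on a line in both windows (r = 0.985 and 0.971), Col4a3 and Col4a4 rise together among P10 libraries (r = 0.770), and Col4a5 and Col4a6 show no such line.

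Within groups the level of the common chains moved with that of the fibroblast and mural markers. The library with the highest Col4a1 in its group was also highest in the summed fibroblast markers in 6 of 6 groups and in the summed mural markers in 5 of 6. At P10 baseline, Col4a1 was 5612, 4062 and 2921 CPM where the 9 mural markers summed to 1602, 1111 and 856 CPM. For Col15a1 the mural markers agreed in 6 of 6 groups and the fibroblast markers in 5. Mural markers summed to 421 to 1065 CPM in the P2 window and 705 to 1602 CPM in the P10 window, with none at 0, 4 of 9 called higher (Rgs5, Kcnj8, Myh11 and Vtn) and Mcam called lower. Endothelial markers summed to 185 to 482 and 288 to 540 CPM, with 1 of 10 called higher (Esam). Of the 10 fibroblast markers 4 were called higher and 1 lower. Over the windows 13.5% of all genes were called and 7.11% were called higher. Of the macrophage markers 10 of 12 had positive estimates, with a median log2 fold change of 0.97 and Itgam called higher. Cardiomyocyte markers went the other way, with sums of 233 to 1071 CPM in the P2 and 118 to 606 CPM in the P10 window, 10 of 10 estimates negative and 4 called lower, and none at 0 in any group. Of 8 epicardial markers 6 had negative estimates, with Tbx18 called lower. The part of these cells in the rise of Col15a1 and the type IV chains was not tested.

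Apical resection was compared with sham surgery at each age. After surgery at P2, 0 of 8 members were called by edgeR, as were 0% of genes. Col18a1, whose product is the source of endostatin, was the member that separated: it was 158, 113 and 105 CPM after resection against 45.6, 27.7 and 70.9 CPM after sham surgery, with no overlap, which 8.47% of genes shared. Its log2 fold change was 1.38 (SE 0.33, 95% interval 0.74 to 2.02), the gene with rank 2 by p among 16170, with an adjusted p of 1 over all genes tested. It was the only member with an unadjusted p under 0.05, and 730 genes had one. DESeq2, with 34 genes called, called it (adjusted p = 0.036), as did edgeR without the filter on low counts (24 genes called, adjusted p = 0.035), and limma voom called 0 genes.

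The P2 baseline mean of Col18a1 lay between those of the P2 resected and P2 sham groups. P2 baseline libraries held 93.3, 149 and 74.1 CPM of Col18a1, so the sham group was the lowest at this age. Its log2 fold change against baseline was -1.13 (SE 0.32, edgeR adjusted p = 0.455), with no overlap, which 9.96% of genes shared. The library with the highest Col18a1 in its group also had the highest summed macrophage markers in 5 of 6 groups. Those markers were 448, 199 and 66.2 CPM in the P2 resected libraries and 5.29, 97.8 and 195 CPM in the P2 sham libraries. Cardiomyocyte markers separated these groups the other way, at 233, 600 and 624 CPM after resection and 810, 1071 and 708 CPM after sham surgery, with 9 of 10 estimates negative and 0 called. Estimates were positive for 11 of 12 macrophage, 8 of 10 endothelial, 8 of 9 mural, 5 of 8 epicardial and 1 of 3 glial markers, with 0 called. The P2 resected libraries also detected more genes, 20163, 19707 and 20044 against 17213, 16384 and 17058 after sham surgery. The part of these values in the difference was not tested.

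At P10 the direction for Col18a1 was the same and the size smaller. It was 79.4, 93.4 and 68.3 CPM after resection and 53.8, 59.4 and 51.8 CPM after sham surgery, again without overlap (8.68% of genes), and the log2 fold change was 0.55 (SE 0.32, 95% interval -0.08 to 1.18, adjusted p = 1). At this age 0 of 8 members and 0% of genes were called by edgeR, with 0 members and 661 genes at an unadjusted p under 0.05, and DESeq2 called 42 genes and 0 members. Markers of some other cells had mostly positive estimates in this comparison. They were 8 of 8 epicardial (sums of 1003 to 1422 CPM after sham surgery and 1164 to 2142 CPM after resection), 9 of 10 endothelial (288 to 511 and 343 to 540 CPM), 11 of 12 macrophage (89.6 to 362 and 69.5 to 1081 CPM) and 8 of 10 cardiomyocyte genes (118 to 606 and 158 to 527 CPM). Estimates were positive for 5 of 9 mural and 0 of 3 glial genes, and 0 of all of these were called. The epicardial marker Lrrn4 was at 0 after sham surgery. The P10 resected libraries detected 19847, 17334 and 17080 genes and the P10 sham libraries 16458, 16256 and 16413. The part of these values in the difference was not tested. Over both ages, again with 0% of genes called and 934 at an unadjusted p under 0.05, the log2 fold change of Col18a1 was 0.96 (SE 0.23, adjusted p = 0.386). DESeq2 gave an adjusted p of 0.0206 there, with 91 genes called, and limma voom gave 0.070, with 51 genes called. The resection effect at P10 minus that at P2 was -0.83 (SE 0.45, 95% interval -1.72 to 0.05, adjusted p = 1), where 0% of genes and 0 members were called and 465 genes and 0 members had an unadjusted p under 0.05, so the effects were not shown to differ by age.

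None of the other members separated resected from sham libraries at either age. For Col4a1 the log2 fold change was 0.61 at P2 (SE 0.38) and 0.31 at P10 (SE 0.38), and for Col4a2 0.52 and 0.41 (SE 0.38 each), all with an adjusted p of 1. Over both ages they were 0.46 and 0.47 (SE 0.27 each, 95% intervals -0.06 to 0.98 and -0.06 to 0.99). Limma voom gave 0.84 and 0.83 there (adjusted p = 0.0645 and 0.0716). Without 1 library the P2 values ran from 0.39 to 1.18 for Col4a1 and from 0.26 to 1.15 for Col4a2. The P10 values ran from 0.11 to 0.74 and from 0.25 to 0.68. Col15a1 had 0.30 at P2 and 0.07 at P10 (SE 0.32 each). The values of the specialised chains overlapped between resected and sham libraries at both ages.

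**Figure D5:**
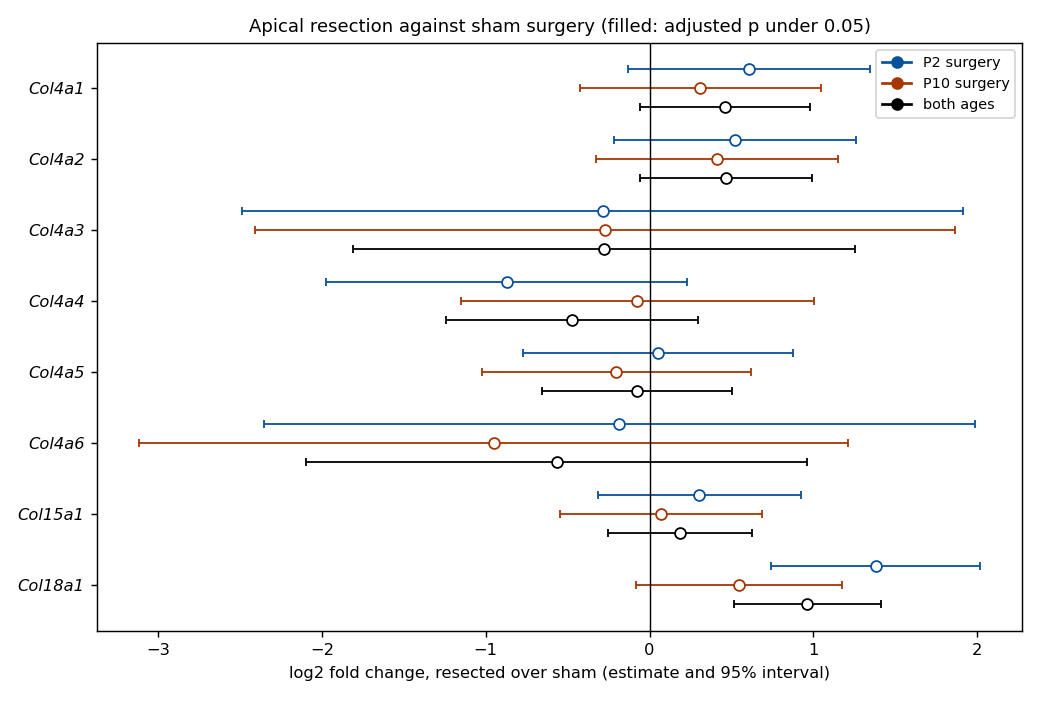
Log2 fold change of resected over sham libraries for each member (horizontal axis, estimate with its normal 95% interval) after surgery at P2, at P10 and over both ages. All points are open, since no adjusted p by edgeR was under 0.05, and Col18a1 at P2 (1.38) and over both ages (0.96) has an interval above 0.

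Sham surgery against baseline, a comparison that also holds 3 days of growth, called 0 of 8 members by edgeR at P2 (0% of genes called) and 0 of 8 at P10 (0.00618%, 1 gene). Unadjusted p-values were under 0.05 for 3 members at P2 (Col4a4 and Col4a6 higher, Col18a1 lower) and 1229 genes, and for 0 members and 1197 genes at P10. Col4a6 moved from 6 counts over the 3 P2 baseline libraries to 127 counts over the 3 P2 sham libraries, with a log2 fold change of 4.52 (SE 1.35, adjusted p = 0.494; DESeq2 0.0186). At P10 the Col18a1 estimate was -0.38 (SE 0.32, adjusted p = 0.915).

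The partners of these collagens were read from 5 lists of basement membrane genes, each beside the 13.5% of genes called over the windows. Of 12 laminin and nidogen genes tested, 6 were called higher at P10 and 0 lower, with a median log2 fold change of 0.76. Laminins are the other network of the basement membrane and nidogens link it to type IV collagen. The rise was 1.00 for Lamb2 (216.6 ± 72.7 to 430.1 ± 58.7 CPM, SE 0.16, adjusted p = 0.000417). Both nidogens, Nid1 and Nid2, were among those called. Lama5 (2.40, SE 0.73, adjusted p = 0.0364) was called at a low level, with estimates of 2.78 between the baseline groups, 4.05 between the sham groups and 0.37 between the resected groups. Lamc3 (adjusted p = 0.0293) was at 0 in all P2 baseline and P2 sham libraries, and it was 2.55 ± 2.29 CPM at P10 baseline and 0.969 ± 0.844 CPM at P10 sham, but had a mean of 0.438 CPM at P2 resected against 0.311 CPM at P10 resected (n = 3 each).

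Of 6 basement membrane proteoglycan and Sparc family genes, 2 were called higher and 0 lower, with a median of 0.45. They were Smoc2 (1.58, SE 0.10, adjusted p = 2.19e-08), a Sparc-related matrix protein, at 985 ± 192 CPM in the P2 and 2948 ± 554 CPM in the P10 window, and Sparc (0.63, SE 0.10, adjusted p = 0.000333), a collagen-binding protein that chaperones type IV collagen, at 9113 ± 1300 and 14025 ± 1431 CPM.

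Among 16 genes for the assembly of type IV collagen, 4 were called higher and 2 lower, with a median of 0.11. The higher ones included Colgalt2 (1.25, SE 0.30, adjusted p = 0.00913), which adds galactose to collagen hydroxylysine, the prolyl hydroxylase subunit P4ha2 (1.05, SE 0.18, adjusted p = 0.000571) and the lysyl hydroxylase Plod1 (0.91, SE 0.14, adjusted p = 0.000311). Another prolyl hydroxylase subunit, P4ha3, fell by 0.95 (SE 0.16, adjusted p = 0.000733).

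Of 11 receptor genes, 2 were called higher and 1 lower, with a median of 0.41. Itga7, the laminin-binding integrin chain known from muscle, rose by 1.53 (SE 0.19, adjusted p = 3.81e-05) and Dag1, which encodes dystroglycan, by 0.50 (SE 0.14, adjusted p = 0.0217), while Itga6, another laminin-binding chain, fell by 1.77 (SE 0.34, adjusted p = 0.00179). Of 8 proteases that can cut basement membrane collagens, 4 were called higher and 0 lower, with a median of 0.46: the stromelysin Mmp3 (4.71, SE 1.12, adjusted p = 0.0101), the cathepsins Ctsb (0.93, SE 0.13, adjusted p = 7.27e-05) and Ctsl (0.62, SE 0.14, adjusted p = 0.00578), and the gelatinase Mmp2 (0.87, SE 0.10, adjusted p = 1.81e-05). Mmp3 was not higher at baseline, with 0.706 ± 1.22 CPM at P2 and 0.243 ± 0.420 CPM at P10. It was at 0 in the P2 sham libraries against 8.51 ± 7.77 CPM at P10 sham, and 1.38 ± 0.451 CPM at P2 resected against 54.7 ± 70.4 CPM at P10 resected, where the highest library held 136 CPM. In the comparisons of resection with sham surgery 0 genes of the 5 lists were called at either age.

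The genes whose log2 CPM went most closely with each member over the 18 libraries, without regard to group, were named as the 3 highest by Pearson's r. These values are descriptions, and the points share age and library depth. Col4a1 was closest to Col4a2 (r = 0.977), Creb3l2 (0.918), a transcription factor of secretory cells, and Man2a2 (0.917), and Col4a2 to Col4a1, Tns1 (0.915) and Creb3l2 (0.915). Col4a3 was closest to Duox1 (0.921), Wfdc1 (0.911) and Bmp6 (0.904), and its neighbour Col4a4 to Plxdc2 (0.926), Clip4 (0.925) and Ccdc80 (0.917). Col4a5 went with Rasl11a (0.907), the basement membrane hemicentin Hmcn2 (0.867) and the proprotein convertase Pcsk6 (0.867), and Col4a6 with Stat5a (0.891), Ephb6 (0.857) and 3300005D01Rik (0.849). Col15a1 had Ntn1 (0.940), Sulf2 (0.917) and Ltbp4 (0.900), and Col18a1 had Jade3 (0.824), Slc45a4 (0.821) and Nbas (0.810). Only Col4a1 and Col4a2 named each other, and the 2 other pairs did not have their neighbour among the 3.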

How the data were processed

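RNA-seq counts of 18 libraries of GFP+ cells (6 groups of 3) were analysed. Per the methods of the study, the authors made single-end libraries with SMARTer and Nextera XT chemistry, trimmed reads with FastP 0.20.0, aligned them to GRCm38 with STAR 2.7.0f, and deposited unnormalised counts per gene symbol from featureCounts (Subread 1.6.4), over exons and without regard to strand. Totals of 10462737 to 22980554 counts per library set the precision, and members with few counts have wide intervals.

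Counts were filtered (edgeR filterByExpr, minimum count 10, minimum total 15), scaled by TMM and fitted over all 18 libraries with group means by quasi-likelihood (edgeR 4.0.16, R 4.3.3). P10 was compared with P2, resected with sham and sham with baseline, and p-values were adjusted over 16170 genes (Benjamini-Hochberg, 0.05). The 95% intervals are normal ones, from the estimate and its SE, and are narrower than the quasi-likelihood test implies. An interval can therefore lie off 0 where the unadjusted p is over 0.05. For Col18a1 between the resected groups it was -1.27 to -0.01, with an edgeR unadjusted p of 0.0622. Alternatives were RLE scaling, no filter, DESeq2 1.42.0, limma 3.58.1 voom with sample weights, a replicate block, the compared libraries alone and leaving out each library. The edgeR fit was tested on simulated data for P10 baseline against P2 baseline over 15427 genes. It called 5 of 95 genes changed by 1 on the log2 scale (5.26%) and 36 of 98 changed by 2 (36.7%). Far fewer genes were changed there than the 709 called in the data, which lowers the share called under this adjustment. A missed threshold with 3 libraries against 3 does not show that a gene did not differ. Exon lengths and positions came from GENCODE M21, 1 release before that of the authors, and start regions from RefSeq (GRCm38.p6), where 7 of 8 members matched. Pair correlations used log2 CPM with a prior count of 2.

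The members and the lists of partners and markers were chosen with earlier results of these data known. Text naming took all members, up to 4 called genes per partner list and comparison by fold, and the 3 genes most like each member. Of the partner lists, only the P10 against P2 window comparison and the counts of resection against sham are printed. Some items that the naming rule covers are not reported here.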

Additional observations from a re-analysis of the deposited data

How the results depend on the processing

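The 5 members called over the windows were 5 in every alternative and in all 18 fits without 1 library, and that comparison already used all its libraries, so no fit with the compared libraries alone was made for it. Of 278 member log2 fold changes under other settings, 244 kept direction and side of the threshold, 26 newly passed it, 2 no longer did and 6 reversed. Members called without the filter on low counts were 5 at baseline, 4 after sham surgery, 2 after resection, and 1 each for P2 resected against sham, resection over both ages and P2 sham against baseline. DESeq2 called 5 at baseline, 2 after sham surgery and 1 each in those same 3 comparisons. Limma voom called 2 after sham surgery, 3 after resection and 4 at baseline (Col4a5 and Col15a1 gained, Col4a6 lost with adjusted p = 0.0749), and the libraries compared alone gave 1 at baseline (Col4a3 lost with adjusted p = 0.0988, and Col4a6 had no value there) and 2 after resection. Without 1 library, members called ranged from 0 to 2 at baseline, 0 to 2 after sham surgery and 0 to 1 after resection. The cause of these changes was not tested.

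Reversals fell on estimates near 0. Col4a1 over the windows was 0.013 with RLE scaling, 0.036 without the filter and 0.013 by DESeq2, and -0.15 to 0.18 without 1 library. Col4a2 after sham surgery was 0.00368 without the filter, 0.30 by voom and 0.011 with the replicate block. Leaving out 1 library gave -0.12 to 0.35 (Col4a1) and -0.018 to 0.48 (Col4a2) at baseline, -0.36 to 0.64 (Col4a1), -0.31 to 0.58 (Col4a2) and -0.074 to 0.59 (Col18a1) after sham surgery, -0.43 to 0.018 for Col4a2 after resection, -0.074 to 0.22 for Col4a2 over the windows and -0.20 to 0.27 for Col15a1 in P10 resected against sham.

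Over 45 same-numbered pairs the correlation of deviations from group means ran from -0.13 to 0.38, with 15 above 0.1. Its median was 0.047, against -0.025 for pairs of other numbers. Whether same-numbered libraries share a source was not tested. Blocking by replicate moved genes called from 709 to 1008 at baseline and from 2183 to 2745 over the windows. After sham surgery they went from 515 to 636, and after resection from 139 to 186. With the replicate block Col4a4 was called after sham surgery, making 1 member in place of 0, and Col15a1 at baseline (adjusted p = 0.0316), making 4 in place of 3.

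Genes called by edgeR, without the filter, by DESeq2 and by voom were 709, 1155, 1675 and 3645 at baseline, 515, 911, 1284 and 707 after sham surgery, 139, 526, 499 and 908 after resection, and 2183, 2759, 3188 and 4569 over the windows. For P2 resected against sham they were 0, 24, 34 and 0, for P10 resected against sham 0, 76, 42 and 0, over both ages 0, 96, 91 and 51, for the difference of the effects 0, 30, 26 and 0, for P2 sham against baseline 0, 110, 180 and 0, and for P10 sham against baseline 1, 151, 167 and 1. Without 1 library, genes called by edgeR ranged from 264 to 1207 at baseline, 312 to 416 after sham surgery, 30 to 136 after resection and 1680 to 2987 over the windows, so the shares of genes called at baseline and after resection rest on few libraries. Counts were fewest for Col4a3 and Col4a6, at 0 to 24 and 0 to 4 in P2 baseline libraries. These libraries held 15524282 to 20096992 counts in total and were not the shallowest.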
